A study of Mus musculus with 4 samples.

Results

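The Wnt target and feedback genes described here are *Axin2*, *Rnf43*, *Znrf3*, *Nkd1*, *Notum*, *Sp5*, *Tcf7*, *Lef1*, *Tcf7l2* and *Lgr4*. They were picked by symbol as the 10 rows of these names among the 36144 gene names of the count table. This rule uses no measured value, but the list of names was drawn up with earlier results of these data known. Bulk RNA-seq was performed on colonoids, which are 3-dimensional cultures of mouse colonic epithelium, to ask how the short-chain fatty acid butyrate changes gene expression over time. The 4 libraries, 1 per condition, came from untreated colonoids and colonoids given 2 mM sodium butyrate, each at 48 h and 72 h (day 2 and day 3). The labels give the genotype of every library as WT, from a male mouse aged 24 weeks, whereas the study's text names a Hes1-GFP line. All 4 cultures, controls included, were kept in a medium with EGF at 40 ng/ml, Noggin at 200 ng/ml, R-spondin at 500 ng/ml, the GSK3 inhibitor CHIR99021 at 3 μM and the ROCK inhibitor Y-27632 at 10 μM. R-spondin and CHIR99021 both stimulate Wnt signalling, so the untreated colonoids are not a state without Wnt stimulation. No culture was repeated, so no difference can be set against replicate error and no test was made. Intervals below are exact 95% intervals on a pair of counts unless another kind is named, and they cover counting error only.

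In canonical Wnt signalling, a Wnt ligand bound to Frizzled and an LRP co-receptor stops the destruction complex from degrading β-catenin. The stabilised β-catenin enters the nucleus and binds transcription factors of the TCF/LEF family, which then activate target genes. Several of these targets encode inhibitors of the same pathway and form a negative feedback. In the colon, Wnt signals are strongest at the crypt base, where they maintain the stem cells, and R-spondins strengthen them through Lgr receptors.

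Over these genes, the 2 time points differed. At 48 h the counting interval of the butyrate difference lay above 0 for 4 of the 10 genes, below 0 for 4 and included 0 for 2 (*Nkd1* and *Znrf3*), and the median log2 difference was 0.02. At 72 h it lay above 0 for 9 and below 0 for *Tcf7l2*, and the median was 0.61. The interval narrows as counts rise, so it can exclude 0 at a small difference, as for *Rnf43* at 48 h (−0.09). The share of all genes with such intervals is not given here, so these counts of genes have no background to be read against. The median over all 13979 genes that had over 10 counts in 2 or more libraries (the tested genes) was −0.01 at 48 h and 0.00 at 72 h. All 10 genes exceeded this minimum, in each of the 4 libraries. A difference of at least 1.5-fold, which is 0.58 on the log2 scale, was taken as the threshold. At 48 h, 3 genes (*Notum*, *Lgr4* and *Tcf7*) were higher past this threshold, where 13.1% of all tested genes were, and 0 were lower, where 8.9% of all tested genes were. At 72 h, 6 genes (*Notum*, *Nkd1*, *Lef1*, *Sp5*, *Axin2* and *Znrf3*) were higher, against 9.5% of all tested genes, and 0 were lower, against 8.53%. *Notum* was the 1 gene higher past the threshold at both times (5.51% of all tested genes), and 0 were lower at both times (2.73%). None of the 10 was past the threshold in opposite directions, being higher at 48 h and lower at 72 h (1.37% of all tested genes) or the reverse (0.715%). Since RNA was taken from whole cultures, fewer cells of a type and less RNA per cell cannot be told apart.

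**Figure D1:**
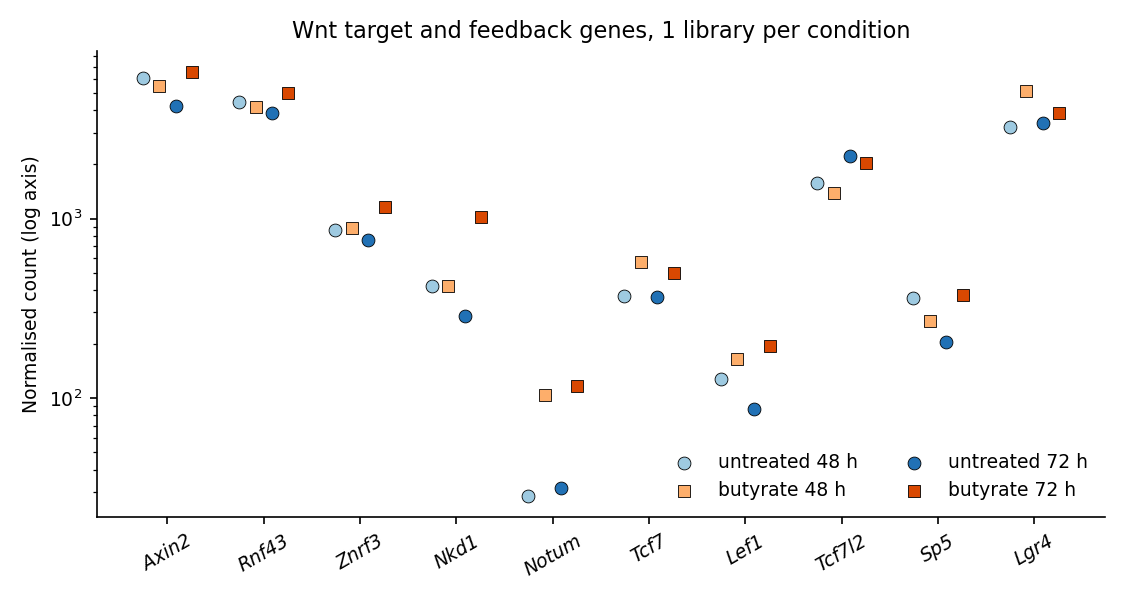
Normalised read count (log axis) of the 10 Wnt target and feedback genes in the 4 libraries, with circles for untreated and squares for butyrate-treated colonoids. *Axin2* ran from 4258 to 6551 and *Notum* from 28.6 to 117, and for 6 genes the untreated 72 h library was the lowest and the butyrate 72 h library the highest.

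Libraries held between 20790225 and 24207840 counts, and a floor of 3 counts corresponds to 0.124 to 0.144 CPM, or counts scaled to the library total. The lowest count among the 10 genes was 28, for *Notum*, and all others were at 88 or more in each library. Mitochondrial genes took 15.1% of the counts untreated against 14.1% with butyrate at 48 h, and 18.4% against 16.3% at 72 h. Epithelial markers (*Epcam*, *Cdh1*, keratins, *Vil1*, *Cdx2*) summed to between 141138 and 155854 normalised counts. Small-intestinal *Lct*, *Apoa4* and *Fabp6* had at most 11 counts in any library. *Gata4*, a factor of the proximal intestine, was detected, with 23 against 98 counts at 48 h, untreated and with butyrate, then 61 against 155 at 72 h. Its log2 difference was 1.87 (1.25 to 2.64) and 1.46 (1.04 to 1.93). *Hoxb13*, a gene of the distal colon, had 66 against 88 counts, then 48 against 13, with log2 differences of 0.24 (−0.23 to 0.73) and −1.69 (−2.76 to −0.85). Their part in the levels of the 10 genes was not tested.

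The promoters of the genes were read from RefSeq (GRCm38.p6) as windows of 250 bases before and 50 after each annotated start. Such windows were found for 8 of the 10 genes, 14 windows in all; *Notum* and *Znrf3* were without an entry. The TCF/LEF motif was searched as CTTTGAA or CTTTGAT on both strands. It was present in 1 of the 14 windows (7.14%), and in 2842 of all 32851 windows of the table (8.65%) and 6.26% of the windows of tested genes. Counted by gene, it was 1 of 8 (12.5%) beside 7.52% of the tested genes, and with 1 match no difference can be read from these shares. The single match lay in the promoter of *Sp5*, a gene that is known as a direct target of β-catenin. Its sequence is shown because it holds the match. The *Axin2* promoter is shown because *Axin2* and *Sp5* followed a similar course over the 4 libraries, and the *Lgr4* promoter because *Lgr4* followed another course. Each is the 250 bases before the start, 5′ to 3′, with the motif in capitals. They span chr2:70474673-70474922, chr11:108920099-108920348 and chr2:109917397-109917646, in this order, all on the plus strand.
Sp5: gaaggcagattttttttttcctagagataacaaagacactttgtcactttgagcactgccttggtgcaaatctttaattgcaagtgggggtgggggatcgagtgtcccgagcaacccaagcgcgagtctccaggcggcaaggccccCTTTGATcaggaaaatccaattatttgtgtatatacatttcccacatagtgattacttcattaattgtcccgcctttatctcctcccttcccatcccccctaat
Axin2: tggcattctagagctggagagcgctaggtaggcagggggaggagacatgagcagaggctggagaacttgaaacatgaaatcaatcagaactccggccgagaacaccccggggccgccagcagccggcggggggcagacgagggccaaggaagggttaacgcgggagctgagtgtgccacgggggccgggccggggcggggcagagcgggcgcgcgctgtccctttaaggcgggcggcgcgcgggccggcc
Lgr4: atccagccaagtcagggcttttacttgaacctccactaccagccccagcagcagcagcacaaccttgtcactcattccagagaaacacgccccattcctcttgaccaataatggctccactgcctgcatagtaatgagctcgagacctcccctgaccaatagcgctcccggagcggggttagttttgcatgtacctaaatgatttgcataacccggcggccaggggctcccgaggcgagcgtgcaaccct
The match in the *Sp5* promoter is a CTTTGAT 104 bases before the start, on the strand of the gene. The 250 bases of the *Axin2* promoter had 69.2% GC, compared with 55.6% for *Lgr4* and 46% for *Sp5*. In the *Axin2* and *Lgr4* windows these letters were not found, which says nothing of sites elsewhere.

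Of the 5 feedback inhibitors, 4 were higher past the threshold at 72 h, where 9.5% of all tested genes were, and 1 at 48 h, where 13.1% were. *Axin2* (chr11:108920349-108950783, plus strand, in the GENCODE annotation of GRCm38, as are the positions of the other genes, all of them protein coding) encodes a scaffold of the destruction complex and is widely used as a readout of canonical Wnt activity. Its normalised read count was 6045 untreated against 5475 with butyrate at 48 h, and 4258 against 6551 at 72 h. The butyrate library was thus the lower of the pair at 48 h and the higher at 72 h. The log2 difference, butyrate over untreated, was −0.14 at 48 h (−0.19 to −0.09) and 0.62 at 72 h (0.57 to 0.68), or 1.54-fold. Its paralog *Axin1*, which is a constitutive part of the complex, had log2 differences of −0.32 (−0.42 to −0.22) and −0.04 (−0.13 to 0.05). The ratio of *Axin2* to *Axin1* counts within a library, which needs no scaling between libraries, was 3.21 untreated against 3.63 with butyrate at 48 h. At 72 h it was 2.12 in untreated (2.01 to 2.23) and 3.34 in butyrate-treated colonoids (3.17 to 3.52). Relative to *Axin1*, *Axin2* was therefore higher with butyrate at both times. This ratio and the other ratios of counts given here were chosen after the values were seen.

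*Rnf43* (chr11:87662722-87735539, plus strand) and *Znrf3* (chr11:5276324-5444847, minus strand) encode transmembrane ubiquitin ligases that remove Frizzled receptors from the cell surface, and R-spondins act by clearing these ligases. *Rnf43* had a normalised read count of 4468 untreated against 4195 with butyrate at 48 h, and 3854 against 4979 at 72 h. Its log2 difference was −0.09 at 48 h (−0.15 to −0.03) and 0.37 at 72 h (0.31 to 0.43), which was short of the threshold. *Znrf3* had 866 untreated against 890 with butyrate at 48 h, and 760 against 1156 at 72 h. Its log2 difference of 0.04 at 48 h was within counting error (−0.09 to 0.17), and that at 72 h was 0.60 (0.47 to 0.74), or 1.52-fold. Both ligases thus had their lowest level in untreated and their highest in butyrate-treated colonoids at 72 h. The ratio of *Rnf43* to *Znrf3* counts lay between 4.31 (4.03 to 4.61) in butyrate-treated colonoids at 72 h and 5.16 (4.79 to 5.56) in untreated colonoids at 48 h.

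*Nkd1* (chr8:88521354-88594884, plus strand) encodes a cytoplasmic inhibitor that binds Dishevelled. Its normalised read count was 422 untreated against 421 with butyrate at 48 h, and 287 against 1014 at 72 h. At 48 h the log2 difference was 0.00 (−0.20 to 0.19), and at 72 h it was 1.82 (1.63 to 2.01), or 3.52-fold. The butyrate 72 h library stood apart from the other 3 for this gene, since the next highest level was the 422 of the untreated 48 h library.

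*Notum* (chr11:120653788-120661175, minus strand) encodes a secreted enzyme that inactivates Wnt ligands by removing their lipid. It had raw counts of 28 against 115 at 48 h, then 32 against 108 at 72 h, in untreated and butyrate-treated colonoids respectively. The normalised read counts were 28.6 and 104 at 48 h, and 31.6 and 117 at 72 h. Both butyrate libraries were therefore above both untreated libraries. The difference was 3.56-fold at 48 h (log2 1.83, 1.26 to 2.52) and 3.61-fold at 72 h (log2 1.85, 1.30 to 2.50). Of the 2376 stretches of 31 bases in *Notum* transcripts of the GENCODE annotation, 784 (33%) also occur in the overlapping antisense genes Notumos and Myadml2os. The strandedness of the counting is not given in the sources used here, so reads of *Notum* and of its antisense partners cannot be told apart.

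Of the 4 transcription factors, *Tcf7* was higher past the threshold at 48 h, *Lef1* and *Sp5* at 72 h, and *Tcf7l2* was past it at neither time. Of all tested genes, 13.1% were higher past it at 48 h and 9.5% at 72 h. *Tcf7* (chr11:52252371-52283014, minus strand), which is both a mediator and a target of the pathway, had a normalised read count of 372 untreated against 574 with butyrate at 48 h. At 72 h the levels were 365 and 496, so both butyrate libraries were above both untreated libraries. The log2 difference was 0.62 at 48 h (0.44 to 0.82) and 0.44 at 72 h (0.24 to 0.64). The 2 untreated levels differed by less than counting error.

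*Lef1* (chr3:131110471-131224356, plus strand) encodes a TCF/LEF factor whose own transcription is raised by Wnt signals. It had 127 untreated against 166 with butyrate at 48 h, and 86.9 against 195 at 72 h. The log2 difference was 0.39 at 48 h (0.05 to 0.73) and 1.16 at 72 h (0.79 to 1.55), or 2.24-fold. Of its 8820 stretches of 31 bases, 1293 (14.7%) occur in other genes, mostly in the overlapping gene Gm43352, so its count may hold reads of that gene.

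*Tcf7l2* (chr19:55741820-55933654, plus strand) encodes the main TCF of the adult intestinal epithelium. Its normalised read count was 1581 untreated against 1394 with butyrate at 48 h, and 2240 against 2035 at 72 h. It was the 1 gene of the 10 that was lower with butyrate at both times, by small amounts, with log2 differences of −0.18 (−0.28 to −0.08) and −0.14 (−0.23 to −0.05). The ratio of *Tcf7* to *Tcf7l2* counts was 0.235 in untreated (0.209 to 0.264) and 0.412 in butyrate-treated colonoids (0.375 to 0.452) at 48 h. At 72 h it was 0.163 (0.146 to 0.182) and 0.244 (0.220 to 0.270). The ratio of *Lef1* to *Tcf7l2* was 0.0802 and 0.119 at 48 h, and 0.0388 and 0.0961 at 72 h. Both ratios were higher with butyrate at each time.

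*Sp5* (chr2:70474923-70477729, plus strand) encodes a zinc finger factor that restrains the transcription of other Wnt targets. Its normalised read count was 359 untreated against 268 with butyrate at 48 h, and 205 against 374 at 72 h. As for *Axin2*, the butyrate library was the lower of the pair at 48 h and the higher at 72 h. The log2 difference was −0.42 at 48 h (−0.65 to −0.20) and 0.86 at 72 h (0.61 to 1.12), or 1.82-fold.

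*Lgr4* (chr2:109917647-110014257, plus strand) encodes a receptor for R-spondins. Its normalised read count was 3239 untreated against 5162 with butyrate at 48 h, and 3397 against 3874 at 72 h. The log2 difference was 0.67 at 48 h (0.61 to 0.74), or 1.59-fold, and 0.19 at 72 h (0.12 to 0.26). The highest level was thus at 48 h with butyrate, when *Axin2*, *Rnf43* and *Sp5* were lower with butyrate. *Lgr5*, the R-spondin receptor that marks crypt base stem cells, had 7546 untreated against 3939 with butyrate at 48 h, and 5044 against 8714 at 72 h. Its log2 difference was −0.94 at 48 h (−0.99 to −0.88) and 0.79 at 72 h (0.74 to 0.84). The ratio of *Lgr5* to *Lgr4* counts was 2.33 in untreated (2.23 to 2.43) and 0.763 in butyrate-treated colonoids (0.733 to 0.794) at 48 h. At 72 h it was 1.48 (1.42 to 1.55) and 2.25 (2.16 to 2.34), so the order of the 2 treatments was opposite at the 2 times.

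**Figure D2:**
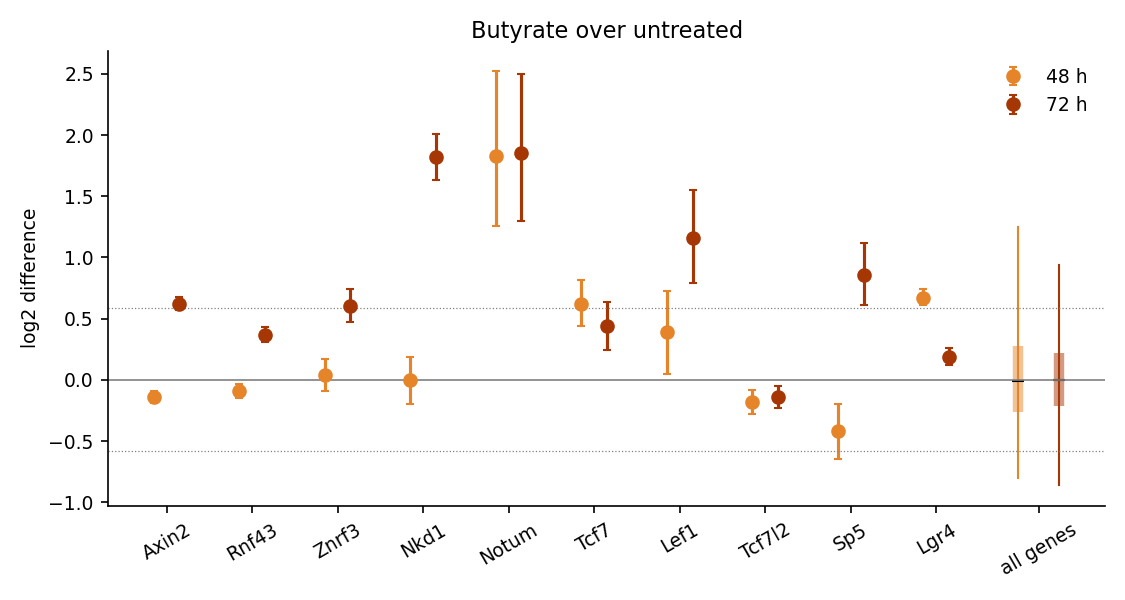
Log2 difference, butyrate over untreated, of each gene at 48 h and 72 h, with exact 95% counting intervals as bars, dotted lines at 1.5-fold, and at the right the median, the middle 50% (box) and the 5th to 95th percentile (line) of all 13979 tested genes. *Nkd1* went from 0.00 to 1.82 while *Notum* was at 1.83 and 1.85, and the 95th percentile of all genes was 1.25 at 48 h and 0.94 at 72 h.

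The change of the butyrate difference between the time points was then taken for each gene, as the log2 difference at 72 h minus that at 48 h. Of the 10 genes, 8 had a more positive difference at 72 h, and *Tcf7* and *Lgr4* a more negative one. The median change was 0.51, compared with 0.00 over all tested genes. The change was 1.82 for *Nkd1* (1.55 to 2.09), 1.28 for *Sp5* (0.95 to 1.62), 0.77 for *Lef1* (0.28 to 1.27) and 0.76 for *Axin2* (0.69 to 0.84), intervals here being a normal approximation to Poisson counting error. These 4 were the genes past the threshold, where 9.51% of all tested genes were. None of the 10 had a difference more negative by 1.5-fold, where 13.3% of all tested genes had. *Znrf3* (0.56) and *Rnf43* (0.46) were short of the threshold, with intervals above 0. The change was −0.48 for *Lgr4* (−0.57 to −0.39). For *Notum* (0.02), *Tcf7l2* (0.04) and *Tcf7* (−0.19) the interval included 0.

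Levels differed with time in both treatments. From 48 h to 72 h without butyrate, 7 of the 10 genes were lower, and the median log2 difference was −0.20. *Sp5* was the 1 gene past the threshold, at −0.80 (−1.06 to −0.55), where 5.17% of all tested genes were lower past it. Next came *Nkd1* at −0.55 (−0.78 to −0.34), *Lef1* at −0.54 (−0.96 to −0.14) and *Axin2* at −0.51 (−0.56 to −0.45). None of the 10 was higher past the threshold, where 6.82% of all tested genes were, and *Tcf7l2* had the most positive difference, at 0.50 (0.41 to 0.60). Scaled to the total count of the library, *Nkd1* and *Lef1* also passed the threshold, at −0.63 and −0.62. *Lgr4*, at 0.07 with an interval that reached 0, went to −0.01 with that scaling.

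With butyrate, 8 of the 10 genes were higher at 72 h than at 48 h, and the median log2 difference was 0.25. *Nkd1* was past the threshold, at 1.27 (1.11 to 1.43) or 2.41-fold, where 9.66% of all tested genes were higher past it. *Tcf7l2* was at 0.55 (0.45 to 0.64), *Sp5* at 0.48 (0.25 to 0.71) and *Znrf3* at 0.38 (0.25 to 0.50), while *Axin2* (0.26) and *Rnf43* (0.25) were at smaller values. None of the 10 was lower past the threshold, where 11.9% of all tested genes were. *Lgr4* was lower, at −0.41 (−0.47 to −0.35), as was *Tcf7*, at −0.21 (−0.39 to −0.04). For *Lef1* and *Notum* the interval included 0. *Tcf7l2* thus had a similar difference in time under both treatments. The 4 comparisons share libraries, so a low untreated level at 72 h enters both the difference in time and that between treatments.

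**Figure D3:**
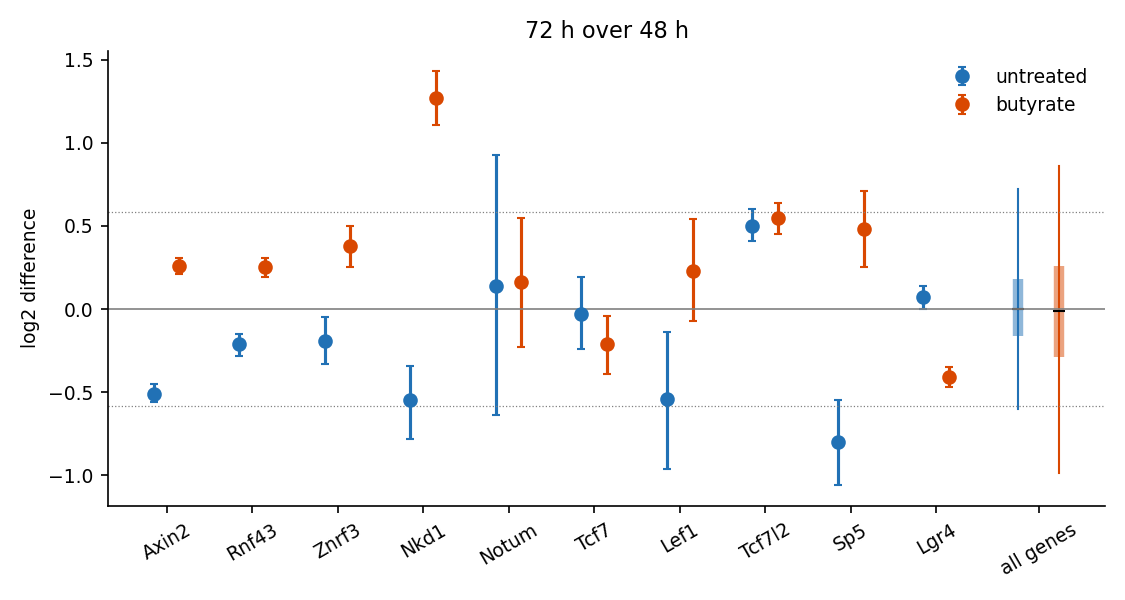
Log2 difference of each gene, 72 h over 48 h, in untreated and butyrate-treated colonoids, drawn as in the plot of butyrate differences. *Axin2* was at −0.51 without and 0.26 with butyrate, *Nkd1* at −0.55 and 1.27, and *Tcf7l2* at 0.50 and 0.55.

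For 6 genes (*Axin2*, *Rnf43*, *Znrf3*, *Nkd1*, *Lef1* and *Sp5*) the untreated 72 h library was the lowest and the butyrate 72 h library the highest of the 4. This order was found in 5.82% of all tested genes, and was looked for after the values were seen. Not all neighbours in the order were separated by more than counting error. For *Axin2* and *Rnf43* each of the 3 steps had an interval that excluded 0. For *Sp5* the top step, from 374 to 359, was within counting error, for *Lef1* the top step from 195 to 166, and for *Znrf3* and *Nkd1* the step between the 2 libraries of 48 h. *Notum*, *Tcf7*, *Lef1*, *Lgr4* and *Znrf3* had both butyrate libraries above both untreated ones, for *Znrf3* with the step from 890 to 866 within counting error. *Tcf7l2* had both 72 h libraries above both 48 h ones.

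Compared with *Axin2* over the 4 libraries, by the Euclidean distance between centred log2 normalised counts, *Rnf43* (0.230), *Znrf3* (0.253) and *Sp5* (0.262) were the nearest of the other 9 genes. They ranked 114, 178 and 205 among the 11649 genes that averaged 50 or more normalised counts, so more than 100 other genes followed *Axin2* more closely. *Nkd1* ranked 10403 and *Notum* 11407. The 5 genes nearest to *Axin2* were *1700066B19Rik* (0.077), *Chst15* (0.079), *Wrap73* (0.095), *Zfp369* (0.096) and *Hoxd4* (0.101). The distance rests on 4 libraries and on the size of the differences as well as their order, and *Nkd1* had the same order of libraries as *Axin2*.

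Per kb of annotated exon, levels ran from 9.89 for *Lef1* in untreated to 1190 for *Axin2* in butyrate-treated colonoids, both at 72 h. *Axin2* had the highest level in all 4 libraries, with 1098 normalised counts per kb untreated against 994 with butyrate at 48 h, and 773 against 1190 at 72 h. *Rnf43* came next with 681, 640, 588 and 759 in the same order, except in butyrate-treated colonoids at 48 h, where *Lgr4* was above it with 877. *Notum* (11.9 to 48.4) and *Lef1* (9.89 to 22.2) were at the low end. *Tcf7l2*, at 159 to 255, was above *Lef1* in all 4 libraries and above *Tcf7* in 3, the exception being butyrate at 48 h, where *Tcf7* was at 219. This exception rests on the length used, since per kb of the longest transcript *Tcf7l2* was at 375 and *Tcf7* at 232 in that library. *Nkd1* was at 63 to 92.7 in 3 libraries and at 222 in butyrate-treated colonoids at 72 h. The inhibitors with the highest levels, *Axin2* and *Rnf43*, were thus not those with the largest butyrate differences at 72 h, *Notum* and *Nkd1*.

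The rest of the pathway was followed through 7 lists of 95 genes, 68 of which passed the filter. At 48 h, 11 of the 68 (16.2%) were higher and 9 (13.2%) lower past the threshold, beside 13.1% and 8.9% of all tested genes. At 72 h, 11 (16.2%) were higher and 2 (2.94%) lower, beside 9.5% and 8.53%. Their median log2 difference was −0.07 at 48 h and 0.10 at 72 h, against 0.02 and 0.61 for the 10 genes. The medians of the 15 tested other Wnt target genes were −0.07 and 0.18. At 48 h, 2 of the 15 were higher and 3 (*Lgr5*, *Bambi* and *Mmp7*) lower past the threshold, and at 72 h 4 were higher and 0 lower. *Ccnd1*, the gene of cyclin D1, had a normalised read count of 4655 untreated against 8354 with butyrate at 48 h, and 4167 against 8870 at 72 h. Its log2 difference was 0.84 (0.79 to 0.90) and 1.09 (1.04 to 1.14). *Myc*, a growth regulator, had 2706 against 6947 at 48 h, then 1463 against 2041 at 72 h, with log2 differences of 1.36 (1.30 to 1.42) and 0.48 (0.38 to 0.58). *Myc* was thus furthest from its control at 48 h, whereas *Axin2*, *Nkd1* and *Sp5* were furthest at 72 h.

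Among the Wnt ligands and the 2 genes of their secretion, 9 of 21 were tested, and 4 were higher at each time, with 1 lower at 72 h. *Wnt7b*, *Wnt6* and *Wnt5b* were higher at both times, all at low counts. *Wnt7b* had 4 counts untreated against 28 with butyrate at 48 h, and 11 against 34 at 72 h. Its log2 difference was 2.37 (1.12 to 4.61) and 1.67 (0.74 to 2.89). *Wnt6* had 4 against 16 counts at 48 h, then 8 against 41 at 72 h, with log2 differences of 1.61 (0.20 to 3.87) and 2.35 (1.38 to 3.79). *Wnt5b* had 33 against 74, then 18 against 42, with log2 differences of 0.97 (0.38 to 1.63) and 1.30 (0.52 to 2.24). Of the secreted antagonists, 4 of 12 were tested, again at low counts. *Dkk3*, of the Dickkopf family, had 3 against 14 counts at 48 h (log2 difference 1.75, 0.21 to 4.49). At 72 h it had 0 against 12 counts, which against a floor of 3 counts in the untreated library was at least 4.38-fold higher with butyrate. *Wif1*, which binds Wnt ligands, had 21 against 37 counts at 48 h, then 16 against 39 at 72 h, and its log2 difference was within counting error at 48 h (0.62, −0.17 to 1.49) and 1.36 (0.54 to 2.35) at 72 h. *Sfrp5*, a decoy receptor for Wnt, had 18 against 4 counts at 48 h, then 12 against 7 at 72 h, with a log2 difference of −2.07 (−4.36 to −0.74) at 48 h and one within counting error at 72 h (−0.59, −2.23 to 0.81). Like *Notum*, *Wif1* had both butyrate libraries above both untreated ones. *Dkk3* and *Wnt6* had this order too, but they passed the filter only through the butyrate libraries, which fixed it beforehand. *Sfrp5* passed only through the untreated libraries. These genes are among the 68 tested genes of the lists, and the direction of their low counts is no separate result. At such counts the pseudocount matters, and with 5 in place of 1 the 48 h log2 differences were 1.74 for *Wnt7b*, 1.13 for *Dkk3* and −1.44 for *Sfrp5*, while *Sfrp5* at 72 h (−0.42) and *Wif1* at 48 h (0.54) were short of the threshold.

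In the destruction complex, 0 of 10 tested genes were past the threshold at either time, and 9 of the 10 were below 0 at 48 h, with a median of −0.26. At 72 h the median was 0.11. β-catenin (*Ctnnb1*) had a log2 difference of 0.17 (0.14 to 0.20) at 48 h and 0.07 (0.04 to 0.10) at 72 h. Among the 14 tested genes of β-catenin and its nuclear partners, 2 were higher and 1 lower at 48 h, and 0 were past the threshold at 72 h. One of the 2 was *Tcf7l1*, a family member that mostly acts as a repressor and that was named after its values were seen. It had a normalised read count of 68.5 untreated against 343 with butyrate at 48 h, and 95.8 against 133 at 72 h. Its log2 difference was 2.31 (1.95 to 2.72) and 0.47 (0.08 to 0.87). Of the 15 Frizzled, LRP and Dishevelled genes, 0 were higher and 4 lower at 48 h, and 1 was higher and 0 were lower at 72 h. R-spondins were below the filter, and the median of the 2 other tested Lgr receptors, *Lgr5* and *Lgr6*, was −0.41 and 0.13. This median lies between unlike values. *Lgr5* was at −0.94 and 0.79, while *Lgr6*, with 8 to 16 counts, was within counting error at 0.12 (−1.02 to 1.30) and −0.52 (−2.05 to 0.81).

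**Figure D4:**
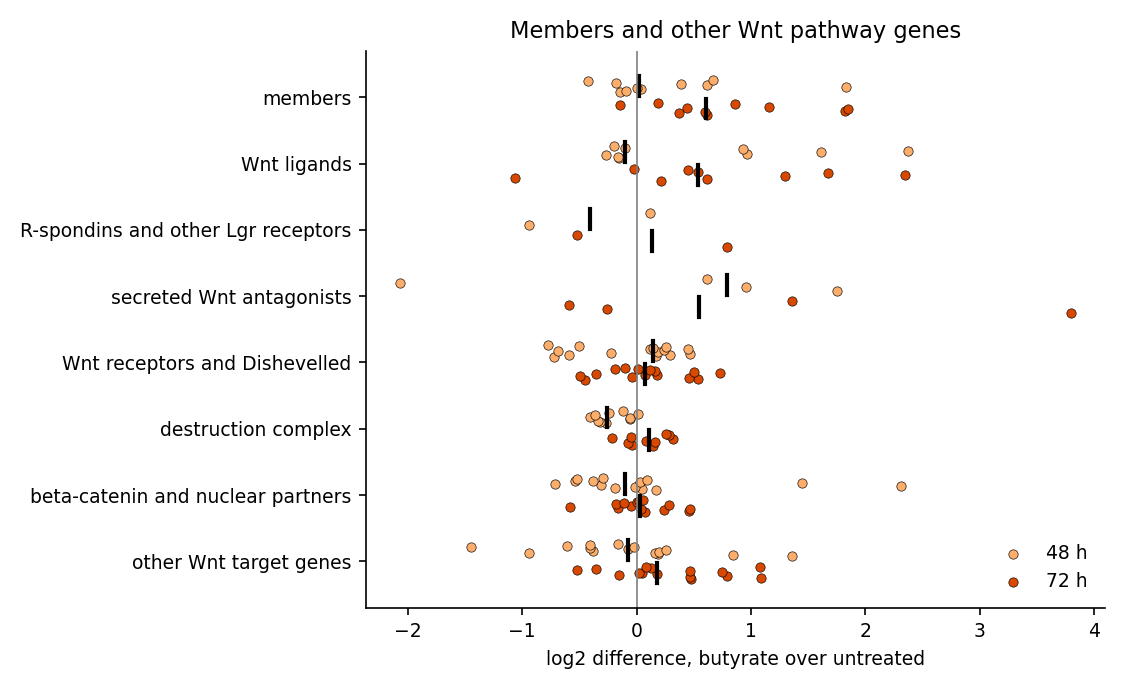
Log2 difference, butyrate over untreated, of the 10 Wnt target and feedback genes (top row) and of the tested genes of the 7 other pathway lists, 1 point per gene, with a black bar at each list's median. The median of the 10 genes was 0.02 at 48 h and 0.61 at 72 h, that of the destruction complex −0.26 and 0.11, and the point furthest right is *Dkk3*, whose untreated 72 h count was 0, so that its position depends on the pseudocount.

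Markers of the cell types in the cultures differed between the libraries along with these genes. At 72 h all 7 stem cell markers, of which *Lgr5*, *Ascl2* and *Tnfrsf19* are also on the list of other Wnt targets, had a log2 difference above 0, with a median of 0.70, and 4 were past the threshold. Their summed normalised count was 37551 untreated against 34670 with butyrate at 48 h, and 33229 against 44063 at 72 h. Like *Axin2*, the sum was lower with butyrate at 48 h and higher at 72 h, and the 72 h libraries were its lowest and its highest. The lower sum at 48 h rests on *Lgr5*, with 7546 untreated against 3939 with butyrate. The largest part of the sum, *Slc12a2*, was higher with butyrate at 48 h (22621 against 24357). By gene, 5 markers were below 0 at 48 h and 2 above it, with a median of −0.15. Of 8 proliferation markers, 7 were above 0 at 72 h but 0 past the threshold, with sums of 32985 against 34737 at 48 h, then 32412 against 42467 at 72 h. Of 8 colonocyte markers, 7 were above 0 at 48 h (median 0.24), with *Car1*, *Car4* and *Slc26a3* past the threshold, and *Ceacam1* was lower past it. At 72 h all 8 were below 0 (median −0.44), 3 of them past the threshold. The sums were 97413 against 105147 at 48 h, then 129493 against 77231 at 72 h. In the 48 h sum, *Car1* (20390 against 44920) and *Ceacam1* (61945 against 38676) went in opposite directions. Of 8 goblet cell markers, 4 were above 0 at 48 h, 2 of them past the threshold, and 1 was lower past it. At 72 h all 8 were below 0 (median −0.83), 6 of them past the threshold, with sums of 111980 against 90408 at 48 h, then 164597 against 88034 at 72 h. For enteroendocrine markers the median was 0.03 at the first time and −0.80 at the second. All 4 tuft cell markers were lower past the threshold at 72 h (median −1.32), with sums of 422 against 348 at 48 h, then 458 against 161. Of the 5 Paneth cell markers, 3 were above 0 and 2 lower past the threshold at each time, with medians of 0.10 and 0.08. The defensin *Defa24*, whose count is uncertain because it has near-identical copies, was at −1.79 (−2.25 to −1.39) and −2.92 (−3.65 to −2.36). The part of these markers' cell types in the levels of the 10 genes was not tested.

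Markers of cells outside the epithelium were few. Of 8 mesenchymal markers 3 passed the filter, with *Col3a1* and *Lum* at 0 in all libraries, and the list summed to between 191 and 248 normalised counts. Of 8 immune markers 2 passed, *Adgre1* was at 0 and *Ptprc* had at most 15 counts. *Csf1r*, a receptor of macrophages that did not pass, had 1 count untreated against 2 with butyrate at 48 h, and 0 against 16 at 72 h. The immune sum was 190 untreated against 1229 with butyrate at 48 h, and 234 against 525 at 72 h. Most of it was *Cd68*, a lysosomal gene of macrophages that other cells also express, with 131 against 1188, then 170 against 454. Its part in the higher *Notum*, *Tcf7* and *Lgr4* levels of the butyrate 48 h library, and that of *Csf1r* in the butyrate 72 h library, was not tested.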

How the data were processed

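Poly-A RNA of 4 colonoid cultures was sequenced, 1 library per condition. The authors deposited estimated counts per gene, rounded to whole numbers, without normalisation or filter. Per the labels and the methods, reads were pseudoaligned with kallisto (0.44.0, GRCm38.p6 in the submitters' processing notes) and summed to genes with tximport. Strand handling is not given in the sources used here. Pseudoalignment divides reads between transcripts that share sequence, which could affect *Notum* and *Lef1*. Of the gene names, 26 had been turned into dates and 2 occurred 2 times; none was used.

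Tested genes had over 10 counts in 2 or more libraries, and counts were divided by DESeq2 (1.42.0) size factors, which lay between 0.926 and 1.10. Log2 differences were taken after adding a pseudocount of 1 to the normalised counts. Intervals are exact Clopper-Pearson intervals at 95% on the pair of counts. Reads carried no molecular identifiers and may be copies of 1 molecule, so counting error is all that the intervals and the 3-count floor cover. No p-value was computed, as there was 1 library per condition. The count of genes past 1.5-fold was set beside the share of all tested genes. Exon lengths, positions and shared 31-base stretches came from the GENCODE annotation of GRCm38, matched by symbol. A length of 31 is the default of kallisto, and the length the authors used is not given in the sources used here. Analyses used R 4.3.3, edgeR 4.0.16, Python 3.11.15, scipy 1.17.1, numpy 2.4.6, matplotlib 3.10.9 and pandas 2.3.3, and scripts were tested on simulated data. The alternatives were a fold of 2, a pseudocount of 5, scaling by edgeR TMM or by total count, other gene filters and the longest transcript as gene length.

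The 10 genes and the lists were chosen with earlier results of these data known. Named beside the 10 were, from each pathway list, up to 4 genes with the largest smaller change of 1 sign past 1.5-fold at both times and up to 2 with opposite signs, *Lgr5*, *Axin1*, *Ctnnb1* and *Myc*, and the 5 genes nearest to *Axin2*. Other pathway genes, such as *Bambi* and *Mmp7*, were named after their values were seen. Protein sequences were not compared.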

Additional observations from a re-analysis of the deposited data

Results flagged for a closer look

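For 3 of the 10 genes, and for *Lgr5* among the other genes named by rule, the butyrate difference pointed in opposite directions at the 2 times, with both counting intervals excluding 0. The log2 difference changed from 48 h to 72 h by 0.76 for *Axin2*, 0.46 for *Rnf43*, 1.28 for *Sp5* and 1.73 for *Lgr5*. By the same criterion 1379 of all 13979 tested genes (9.86%) pointed in opposite directions, and 14 of the 68 tested genes of the other pathway lists (20.6%), *Fzd5*, *Fzd3* and *Prox1* among them. With 1 library per condition, this difference between the time points was not tested.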

How the results depend on the processing

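No paired analysis was possible because the groups share only replicate number 1, with a single library in each. Leaving out a library was not possible for the same reason. No log2 difference of a named gene or of the medians changed from one called direction to the other under any alternative. With a fold of 2 in place of 1.5, the number of the 10 genes that were higher with butyrate went from 3 to 1 at 48 h (6.94% of all tested genes) and from 6 to 3 at 72 h (4.53%). The number lower at 72 h than at 48 h without butyrate went from 1 to 0 (1.82% of all tested genes), and the number with a more positive butyrate difference at 72 h from 4 to 2 (3.68%). Scaled to the total count, the number lower in time without butyrate went from 1 to 3 (6.4% of all tested genes). Of 56 recomputed counts of these genes, 51 stayed within 1.5 times of the reported count, as did 42 of 84 counts over all genes. Among single genes, 243 of 252 recomputed differences stayed within their counting interval. The 12 medians over the 10 genes moved by no more than the median half-width of these genes' counting intervals. Total count scaling shifted the median of all genes by at most 0.08 in size. Per kb of the longest transcript in place of annotated exon, 5 of the 10 levels were classed as moved and 5 as the same. The mean level was 1310 for *Axin2*, 1015 for *Rnf43*, 488 for *Tcf7l2*, 145 for *Znrf3* and 39.3 for *Lef1*. Per kb of annotated exon, these genes ranged over the 4 libraries from 773 to 1190, 588 to 759, 159 to 255, 96.3 to 146 and 9.89 to 22.2, in this order. Depth limits *Notum* most, with 28 to 115 counts the fewest of the 10 genes. Without repeated cultures, the spread between cultures is unknown, and a difference between conditions cannot be told apart from one between cultures.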
